A study of Mus musculus with 2 samples.

Results

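Some stretches of the mouse genome that code for protein are also open chromatin. In retina of embryonic day 14.5, 1694 peaks of DNase I hypersensitivity were centred on coding sequence away from promoters. They were the autosomal peaks of replicate 1 that a replicate 2 peak overlapped by at least 1 bp, that lay more than 1 kb from every annotated transcription start site (TSS), and whose midpoint fell in a coding interval of the GENCODE annotation on mm10. Replicate 1 had 165269 distinct peaks, of which 161073 were autosomal, 116940 of those distal to TSSs, and 83250 of those shared with replicate 2. The coding peaks were 2.03% of these shared distal peaks (95% exact interval 1.94 to 2.13%). The rule used position and overlap. It did not use the score, base composition, motifs or neighbours of the peaks, although overlap between the libraries was itself more frequent for stronger peaks.

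The samples were 2 libraries of 1 group, healthy retina from embryos of strain B6NCrl, pooled from males and females, with no treatment or genotype compared. The labels give them as biological replicates 1 and 2, with separate biosamples under 1 donor label, and list an additional sequencer model for replicate 1. Replicate and sequencer therefore cannot be told apart, and with 1 group there was no test between conditions. As a check of the tissue label, a promoter peak was present in both libraries at 7 of 7 genes of retinal progenitors, 4 of 4 of ganglion cells and 3 of 3 of photoreceptor precursors, and at 0 of 3 genes each of lens, endothelium, microglia and erythroid cells. Of 2 muscle genes, Myod1 had one. In this bulk tissue, openness in few cells and weak openness in many cells cannot be told apart.

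DNase I cuts DNA where nucleosomes are displaced, as at promoters, enhancers and insulators, so a peak marks a place that proteins can reach. Coding exons can hold such elements too, because the same bases can spell codons and a binding site for a transcription factor, and an exonic element may act on its own gene or on a neighbour. CTCF, a zinc finger protein at insulators and loop anchors, NRF1 and the SP/KLF factors of GC-rich DNA, and the bHLH and homeodomain factors that direct retinal cell fates are among the proteins whose sites such DNA can hold.

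The peaks below show what this open coding DNA looks like, each 150 bp, from mm10 and on the strand of its gene. The first group has the 3 coding peaks with a CTCF consensus match that were strongest in the weaker library, with that match in capitals; it lay wholly in codons in each of them. They were in the last coding exon of Synpo2l, which encodes an actin-associated protein of muscle, the last coding exon of the predicted gene Gm30191, and an inner coding exon of Rasip1, which encodes a Ras-interacting protein of endothelium.
Synpo2l chr14:20661076-20661225 minus strand: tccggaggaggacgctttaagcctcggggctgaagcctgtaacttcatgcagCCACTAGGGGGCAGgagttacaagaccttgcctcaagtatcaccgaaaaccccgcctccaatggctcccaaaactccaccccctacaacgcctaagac
Gm30191 chr4:134249776-134249925 plus strand: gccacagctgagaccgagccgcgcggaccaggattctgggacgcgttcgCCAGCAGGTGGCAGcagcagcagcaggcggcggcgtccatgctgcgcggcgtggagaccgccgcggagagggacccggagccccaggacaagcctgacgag
Rasip1 chr7:45628876-45629025 plus strand: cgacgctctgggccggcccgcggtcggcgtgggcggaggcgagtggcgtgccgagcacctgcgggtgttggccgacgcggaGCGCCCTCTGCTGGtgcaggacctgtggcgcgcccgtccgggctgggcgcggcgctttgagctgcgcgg

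The second group has strong coding peaks with matches of other kinds, again in capitals. Apold1, for an apolipoprotein L domain protein, held an NRF1 match, and Angptl6, for a secreted angiopoietin-like protein, held an E-box (CAGCTG) and the SP/KLF hexamer (GGGCGG). Zfp771, for a zinc finger protein, held none of the 16 motifs searched and is shown in lower case for its composition, 74.7% GC.
Apold1 chr6:134983656-134983805 plus strand: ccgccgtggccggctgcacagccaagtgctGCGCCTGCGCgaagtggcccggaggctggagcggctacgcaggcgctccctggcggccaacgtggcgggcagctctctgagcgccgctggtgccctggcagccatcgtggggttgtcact
Angptl6 chr9:20878196-20878345 minus strand: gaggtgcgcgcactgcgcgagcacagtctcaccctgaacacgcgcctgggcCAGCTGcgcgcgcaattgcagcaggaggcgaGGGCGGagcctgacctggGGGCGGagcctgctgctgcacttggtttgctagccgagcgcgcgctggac
Zfp771 chr7:127254196-127254345 plus strand: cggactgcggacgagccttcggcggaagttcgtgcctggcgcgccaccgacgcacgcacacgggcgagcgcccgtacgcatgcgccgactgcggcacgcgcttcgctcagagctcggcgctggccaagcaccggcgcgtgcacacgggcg

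The third group has peaks that ran across a splice site. Here capitals mark coding bases and lower case the intron after them. Sptbn4 encodes the beta-IV spectrin of axon initial segments, and Robo3 a receptor that steers commissural axons.
Sptbn4 chr7:27361536-27361685 minus strand: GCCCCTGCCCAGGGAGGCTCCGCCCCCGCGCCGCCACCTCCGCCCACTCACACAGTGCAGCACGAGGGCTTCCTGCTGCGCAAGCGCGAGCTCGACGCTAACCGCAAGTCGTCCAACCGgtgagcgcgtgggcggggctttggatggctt
Robo3 chr9:37420816-37420965 minus strand: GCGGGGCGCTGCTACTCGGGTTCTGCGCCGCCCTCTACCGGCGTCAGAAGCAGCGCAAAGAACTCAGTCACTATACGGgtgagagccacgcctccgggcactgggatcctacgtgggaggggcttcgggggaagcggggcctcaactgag

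Each peak carries a deposited score whose meaning is not stated. It was used only as a percentile rank within its library, from 0 for the weakest to 100 for the strongest peak. Angptl6 scored 130 in replicate 1 and 139 in replicate 2, which are ranks of 99.3 and 99.1. It was the coding peak with the highest lower rank of all. Zfp771 scored 134 and 135 (ranks 99.7 and 98.2), and Sptbn4 123 and 141 (ranks 98.1 and 99.5). Apold1 scored 129 and 134. These peaks stood among the strongest few percent of all peaks in both libraries. The other genes among the 12 with the highest lower rank were Lpar5, a lysophosphatidic acid receptor gene (122 and 137), Fbxl22, an F-box protein gene (124 and 133), Psmc2, for a proteasome ATPase (118 and 133), Synpo2l (116 and 131), Robo3 (114 and 127), Prrt4 (111 and 129), Gdf15, for a stress-induced cytokine of the TGF-beta superfamily (111 and 128), and Synpo, for an actin-associated protein of podocytes and dendritic spines (122 and 124). Of these 12 genes, Angptl6, Lpar5 and Synpo2l had no promoter peak shared by both libraries.

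At the other end, the weakest shared coding peaks scored 6 and 15 in Zfp534, 16 and 22 in Pcnt, for a centrosomal scaffold protein, and 9 and 24 in Fbxw20. All of the Zfp534 peak was coding, and 115 of its bases lay in annotated repeats. Genes with near-identical copies, such as those of zinc finger clusters, may share reads with other places. This was not tested, and their peaks are uncertain.

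Across the 1694 coding peaks the scores ran from 6 to 134 in replicate 1 and from 15 to 141 in replicate 2. The median rank was 64.0 in replicate 1 and 67.9 in replicate 2, a mean of 65.9 ± 2.79 (SD, n = 2 libraries). The ranks come from lists of unlike length, so this SD does not measure a spread in openness. Shared distal intron peaks, and likewise intergenic ones, had medians of 54.9 and 66.3. Peaks in untranslated exon sequence had 61.7 and 70.8, and those in noncoding exons 59.3 and 68.7. The coding median was thus the highest of these classes in replicate 1, and in replicate 2 it lay below both other exon classes. Ranks of 90 or more in both libraries were reached by 109 coding peaks (6.43%), 1317 intron peaks (3.24%) and 1796 intergenic peaks (4.75%), against 4.11% of all shared distal peaks. Untranslated exon peaks reached them in 6.09% and noncoding exon peaks in 6.46%, so the coding share was near those of other exons.

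**Figure D1:**
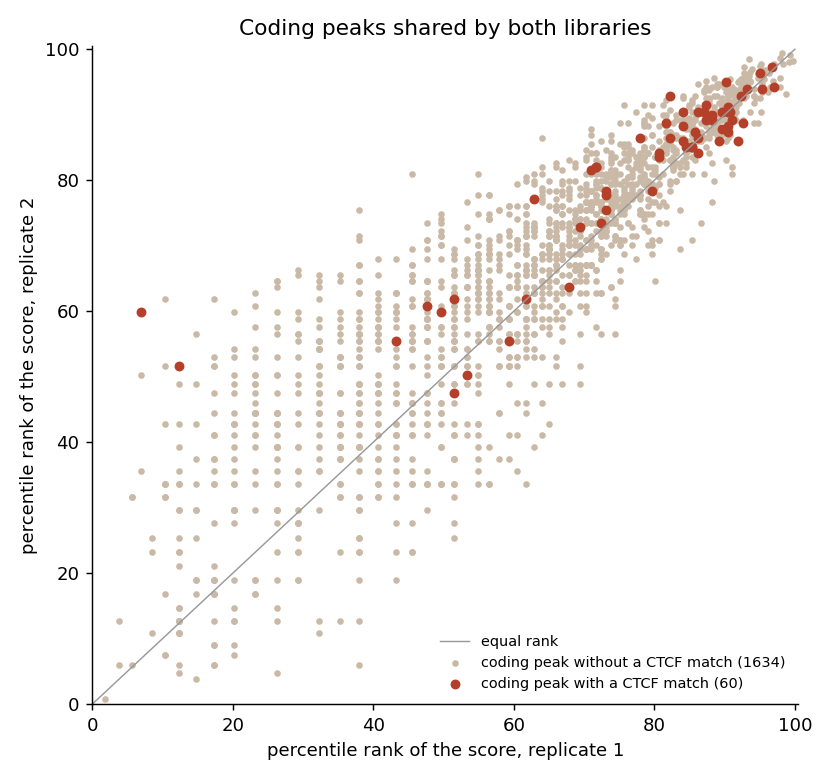
Each point is 1 of the 1694 coding peaks, placed by the percentile rank of its score in replicate 1 (x axis) and in replicate 2 (y axis). The 60 peaks with a CTCF match, in red, have medians of 84.3 and 86.2, and the others 62.9 and 67.1.

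The ranks of the libraries followed each other, with a Spearman correlation of 0.908 over the 1694 coding peaks, a description of peaks that share their sequence. The ranks lay within 10 points of each other in 1160 peaks (68.5%). The lists differ in length, with 165269 distinct peaks in replicate 1 and 219308 in replicate 2, so a rank difference between libraries shows no change in openness, and is given here only to set classes of peaks side by side. Replicate 1 had the higher rank in 529 coding peaks (31.2%), in 17.0% of intron peaks and in 19.0% of intergenic peaks. The median difference, replicate 1 minus replicate 2, was -3.38 rank points in coding, -7.98 in intron and -7.25 in intergenic peaks. GC content moved with it. The coding difference was -9.09 where the peak had under 45% GC and -0.31 where it had 65% or more. Intron peaks gave -10.5 and -2.37 in the same ranges, and intergenic peaks -9.75 and -1.62. The part of sequencer and library in this was not tested.

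The coding peaks whose ranks lay farthest apart show the size this could reach. Crnkl1, for a splicing factor, ranked 38.0 in replicate 1 and 6.04 in replicate 2 with a score of 24 in each. Syne2, for a nuclear envelope protein, ranked 61.7 and 33.7, and Bckdhb, for a mitochondrial dehydrogenase subunit, 51.5 and 25.4. In the other direction, Golga3, for a Golgi protein, ranked 6.94 in replicate 1 and 59.8 in replicate 2. Osbpl11 ranked 10.3 and 61.8, and Atp8a2, for a phospholipid flippase, 17.4 and 61.8. All 6 peaks were in inner coding exons and crossed an exon edge.

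How often the other library held a peak at the same place depended on strength. Before the overlap rule, replicate 1 had 2421 distal coding peaks, and 70.0% of them (68.1 to 71.8%) were overlapped in replicate 2, against 71.2% of all its distal peaks, 71.6% of intron and 70.8% of intergenic peaks. That share is near the background. Coding peaks were stronger, however, and at the same strength they were overlapped less often. Weighted to the rank deciles of the coding peaks, the shares were 70.0% for coding, 77.5% for intron and 78.3% for intergenic peaks. Weighted to rank decile and GC range together, intron and intergenic peaks gave 75.9% and 76.4%. Seen from replicate 2, 59.7% of 2712 coding peaks were overlapped in replicate 1, against 49.8% of intron and 49.7% of intergenic peaks. Within ranges of GC content the coding share from replicate 2 was below the intergenic share, and below the intron share other than at 50 to 55% GC. At 60 to 65% GC the shares were 62.2% for coding, 66.3% for intron and 71.3% for intergenic peaks, and at 65% or more 81.0%, 81.6% and 84.3%. None of these differences was tested. The weightings were chosen after the values were seen.

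**Figure D2:**
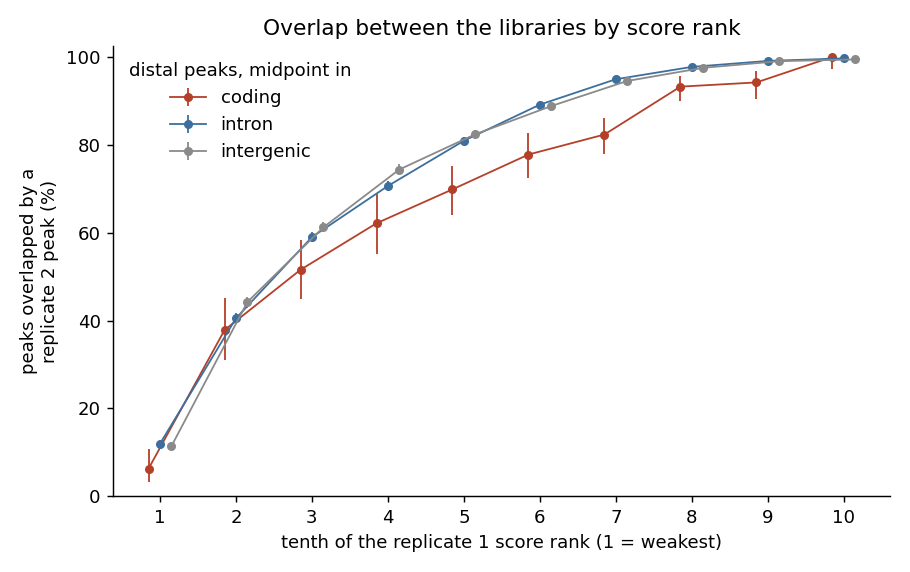
The x axis is the decile of the replicate 1 score rank, the y axis the percentage of distal peaks overlapped by a replicate 2 peak, and bars are exact 95% intervals. Coding peaks go from 6.28% in the weakest decile to 100% of 132 in the strongest, and in the seventh decile are at 82.3% beside 94.9% for intron and 94.5% for intergenic peaks.

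By peak midpoints, coding sequence took more than its share of the open distal genome. The distal part of the autosomes comprised 2245 Mb, of which 24.0 Mb (1.07%) was coding. It held 70.5 shared peaks per Mb, 1.90 times the 37.1 per Mb of all distal sequence. The untranslated parts of exons held 54.0 per Mb, noncoding exons 56.9, introns 42.1 and intergenic sequence 31.5. The density was thus highest in coding sequence and lowest between genes. Annotated repeats were kept in all of these lengths, and their part in the order was not tested. The ratio depends on the midpoint rule: counting only peaks that lie wholly within coding sequence, it was 0.908, and many coding exons are too short for such a peak.

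The coding peaks were GC-rich and rich in CpG. Their median GC content was 59.3%, against 50% in intron peaks, in intergenic peaks and in 150-bp windows of distal coding sequence that no peak touched. CpG occurred at a median of 0.534 times its expectation in coding peaks, against 0.233 in intron peaks, 0.245 in intergenic peaks and 0.328 in the coding windows. Coding sequence with under 45% GC held 17.1 peaks per Mb (13.9 to 20.7, exact Poisson 95% interval), and that with 65% or more held 657 per Mb (599.8 to 718). The GC-richest range was 3.14% of the coding bases and held 488 of the peaks (28.8%). The median ranks in replicates 1 and 2 were 38.0 and 53.0 in the lowest GC range and 75.7 and 76.0 in the highest. There were 9 coding peaks (0.531%) with annotated repeats over at least 75 bp, several of them in the gene 2410141K09Rik. The share was 4.46% in intron peaks, 4.54% in intergenic peaks and 1.51% in the coding windows without a peak.

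Peaks were densest in genes with a single coding exon and sparsest in inner exons. Single coding exons held 148 peaks per Mb (126 to 173), first coding exons 127 (105 to 151), last ones 107 (97.5 to 117) and inner ones 54.1 (50.7 to 57.7). Inner exons still held 923 of the peaks (54.5%), since 72.0% of the coding bases were in them. In equal steps along the coding sequence, from its start to its end, the density was 63.0, 61.3, 61.5, 76.7 and 89.8 per Mb. In this distal coding sequence it was higher towards the 3′ end and not raised at the start. Coding sequence within 1 kb of a TSS, which held a further 2464 shared coding peaks, was outside this count. By length, coding stretches under 150 bp held 50.4 per Mb, those of 300 bp to under 1000 bp 109, and those of 1000 bp or more 89.0. The order by length depended on GC. At 45 to 50% GC, stretches of 300 bp or more held 15.0 per Mb and shorter ones 38.6, and at 65% GC or more they held 748 and shorter ones 465.

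**Figure D3:**
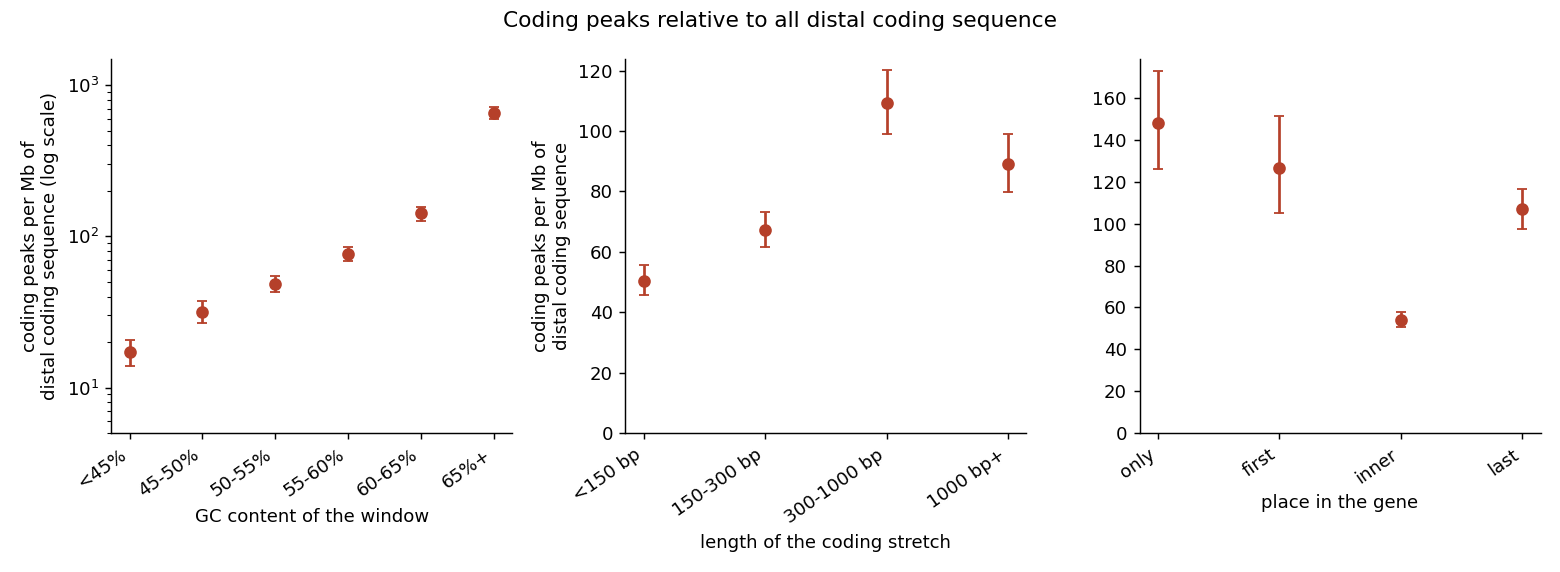
Coding peaks per Mb of distal coding sequence (y axes, logarithmic in the left panel) by GC content of the 150-bp window, length of the uninterrupted coding stretch and place among the gene's coding exons, with exact Poisson 95% intervals. Density goes from 17.1 per Mb under 45% GC to 657 at 65% or more, and is lowest, at 54.1, in inner exons.

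Of the coding peaks, 809 (47.8%, 45.4 to 50.2%) were coding over all 150 bp, and the other 885 crossed an edge of the coding sequence with a median of 106 coding bases. The wholly coding peaks had median ranks of 68.6 and 71.5 in replicates 1 and 2 and a median GC content of 64.7%. Those that crossed an edge had 59.3, 64.6 and 56.0%. Ranks of 90 or more in both libraries were reached by 9.02% of the wholly coding peaks and 4.07% of the crossing ones. Untranslated bases of some transcript were in 339 peaks. The midpoint fell on codon base 1, 2 and 3 in 556, 568 and 570 peaks.

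Motifs were searched as short consensus sequences on both strands. The E-box CAGCTG and the homeodomain core TAATTA read the same on both strands, as does the CACGTG of Myc and USF factors, and matches at the same start on both strands count once. CTCF, NRF1, RFX and REST are given by name. A CTCF match was in 60 coding peaks (3.54%, 2.71 to 4.54%), against 4.69% of intron peaks, 5.50% of intergenic peaks and 5.10% of all shared distal peaks. The coding interval meets that of intron peaks (4.48 to 4.90%), and no difference was tested. With any overlap with coding sequence in place of the midpoint, the share was 5.15%, so which side of the background it falls on depends on that rule. In the 167735 coding windows without a peak of either library the share was 0.0125%, and 0.0228% when the windows were weighted to the GC ranges of the coding peaks.

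The reverse count starts from the motif. Distal autosomal coding sequence held 80 CTCF matches wholly within codons, and 55 of them (68.8%, 57.4 to 78.7%) lay in a peak shared by both libraries. Of 2477 matches in introns 77.8% did, and of 2748 between genes 76.2%. Most sequences of this form were therefore in open chromatin in both libraries, in codons as elsewhere, and the coding interval reaches the other shares. For NRF1, 38 of 191 coding matches (19.9%, 14.5 to 26.3%) lay in a shared peak, against 3.29% of 2369 in introns and 4.91% of 2242 between genes. Here the coding share was above the others, and the part of GC content in this was not tested. Matches in the same peak were counted separately, so these intervals may be too narrow. RFX matches gave 5.71% of 403 in codons, 4.47% in introns and 3.28% between genes. REST, the repressor of neuronal genes, had 10 coding matches, 3 of them in a shared peak, against 60.2% of 266 in introns and 63.4% of 257 between genes. The coding interval of 6.67 to 65.2% reaches both.

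**Figure D4:**
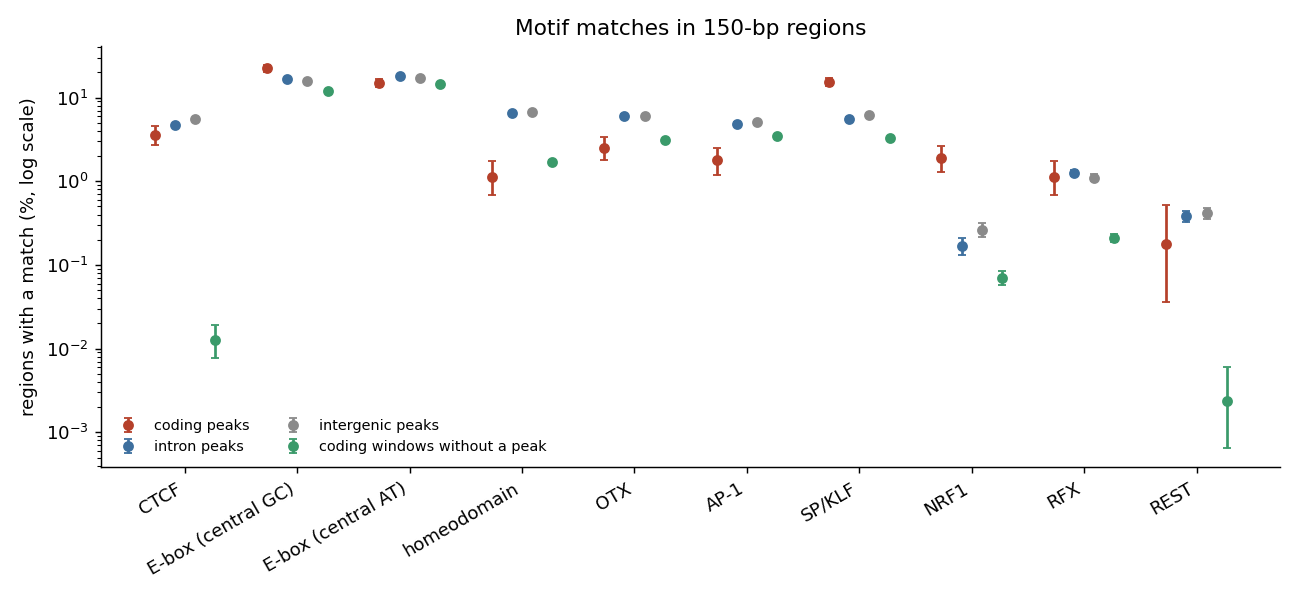
Percentage of 150-bp regions with a consensus match (y axis, logarithmic), with exact 95% intervals, in coding peaks, intron peaks, intergenic peaks and coding windows without a peak. CTCF stands at 3.54% in coding peaks and 0.0125% in the windows, and the homeodomain hexamer at 1.12% in coding and 6.53% in intron peaks.

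Peaks with a CTCF match were a strong group among the coding peaks. Their median ranks were 84.3 and 86.2, against 62.9 and 67.1 without a match, and the share of coding peaks with a match was 0.592% in the weakest quintile by lower rank and 11.2% in the strongest. Ranks of 90 or more in both libraries were reached by 10 of the 60 (16.7%, 8.29 to 28.5%) and by 99 of the 1634 others (6.06%). They were less GC-rich, with a median of 56% against 60%, and 66.7% against 54.0% were in inner exons. The midpoints of the libraries' peaks lay within 20 bp of each other in 95% of them and in 58.5% of the others. The match itself lay a median of 14 bp from the peak's midpoint, within 30 bp in 53 of 60, and in 59 different genes.

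Synpo2l scored 116 and 131, Gm30191 107 and 127, and Rasip1 118 and 118, which put these 3 printed peaks at the top of the CTCF group. Among the families described below, the highest peak of the chromatin regulators and the second highest of the ion channels held a CTCF match too. Smarcb1, for a core subunit of the SWI/SNF remodeller, scored 80 and 105, and Kcnj9, for an inwardly rectifying potassium channel, 73 and 94. Of the 55 coding CTCF matches in shared peaks, 26 were on the strand of the gene. Read in the direction of the gene, whichever strand held the motif, the match began on codon base 1, 2 and 3 in 14, 13 and 28 of them. On opposite-strand matches this is the end of the motif. Read likewise, the 21 coding matches in no peak of either library began there in 12, 1 and 8. With so few matches the difference was not tested.

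Other motifs were more frequent in coding than in intron peaks in some cases and less frequent in others. The SP/KLF hexamer GGGCGG was in 15.3% of coding peaks, 5.57% of intron peaks and 10.1% of coding windows weighted to the GC ranges of the coding peaks. The weighting leaves differences within a range. At 65% GC or more, the median GC was 70% in coding peaks and 67.3% in coding windows. NRF1 was in 1.89% (32 peaks), against 0.168% in introns and 0.360% in the weighted windows, and its peaks had median ranks of 85.1 and 82.1. The E-box CAGCTG was in 22.4%, 16.5% and 16.7%. The E-box CAGATG, bound by Atoh7 and Neurod1, was in 15.1% of coding peaks, 17.9% of intron peaks and 12.9% of the windows. TAATTA, the core site of homeodomain factors such as those of the retinal progenitor, was in 1.12% of coding peaks and 6.53% of intron peaks, but in 0.475% of the weighted windows. GGATTA, bound by Otx2 and Crx, was in 2.48%, 6.05% and 1.62%. The AP-1 site TGANTCA was in 1.77%, 4.88% and 2.20%. TAATTA and GGATTA were thus rarer in coding than in intron peaks, and not rarer than in the weighted coding windows. Coding and intron peaks were not compared at equal GC.

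The 3 coding peaks with a REST match are named after their values were seen. They lay in Gja10, a connexin gene of retinal horizontal cells, with scores of 71 and 92, in Lrtm2 with 34 and 64, and in Extl3, for an enzyme of heparan sulphate synthesis, with 33 and 67.

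The 1694 peaks lay in 1377 genes: 1138 genes had 1, 186 had 2, 40 had 3 and 13 had 4 or more. Among the 15 gene families, coding peaks were densest in the lists of retinal progenitor factors and retinal neuron fate factors. Their intervals overlapped those of Hox genes (147 to 1058 per Mb) and other developmental transcription factors (288 to 522). The lists were chosen with earlier results of these data known. Retinal progenitor factors held 15 peaks in 11 of 30 genes with distal coding sequence, 637 per Mb (357 to 1051), and retinal neuron fate factors 30 in 20 of 47 genes, 636 per Mb (429 to 908). All genes together held 70.1 per Mb. The progenitor list had peaks in Rax, Six3, Sox8, Sox9, Lhx9, Nr2f1, Nfix, Tbx2, Tbx3, Tbx5 and Zfp36l1, and the neuron list in Isl1, Isl2, Pou4f1, Pou4f2, Neurog2, Insm1, Lhx1, Prdm13, Tfap2b, Barhl2 and 10 further genes. The median GC content of these peaks was 64.0% and 66.0%, above the 59.3% of all coding peaks, and the part of GC in the densities was not tested.

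Rax, the homeobox gene that specifies the eye field, scored 101 and 130 at the end of its last coding exon. Of the 150 bp of that peak, 79 were coding. Neurog2, a proneural bHLH gene, scored 103 and 113 within its only coding exon, and Prdm13, a factor of amacrine cell fate, 103 and 110 in its last coding exon. Sox8 scored 84 and 98. These were the strongest coding peaks of both retinal lists. Other developmental transcription factors held 47 peaks, 392 per Mb, led by Klf1, the erythroid factor, with 99 and 122, and by Nkx2-2, a factor of the ventral neural tube, with 85 and 109. Klf1 had no promoter peak shared by both libraries, and the 3 erythroid marker genes had none in either library. Hox genes held 5 peaks, 453 per Mb (147 to 1058), the highest in Hoxb2 (47 and 70) and Hoxd10 (43 and 76).

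Signalling genes followed with 32 peaks, 173 per Mb, among them Fzd8, a Wnt receptor (109 and 115), and Notch3 (88 and 106). Cadherins outside the clusters, teneurins and adhesion receptors held 30, 118 per Mb, led by Cdh22 (103 and 113) and Tenm2 (95 and 124). Axon guidance genes held 15, 97.5 per Mb (54.6 to 161), led by Robo3 and the semaphorin gene Sema4a (97 and 124), and ion channels 42, 96.5 per Mb (69.6 to 130.5), led by the sodium channel gene Scn8a (77 and 116). The intervals of the last pair of lists reached the density of all genes.

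The remaining families lay below the density of all genes, with intervals that reached it for collagens, cytoskeletal genes and ribosomal protein genes. Chromatin regulators had 8 peaks, 25.3 per Mb (10.9 to 49.9), led by Smarcb1 and by Kmt2a (71 and 88), a histone methyltransferase gene. Collagens had 5, 30.1 per Mb (9.76 to 70.2), the highest in Col16a1 (57 and 88) and Col28a1 (44 and 64). Genes taken as zinc finger genes by their symbol, which include some of other zinc finger kinds, had 36, 46.8 per Mb (32.8 to 64.7), led by Zfp771 and Zfp697 (96 and 127). Clustered protocadherins had 1, Pcdhac2 (25 and 54), at 11.4 per Mb, and chemosensory receptors 1, Olfr95 (29 and 50), at 2.44 per Mb (0.0619 to 13.6). Cytoskeletal and giant structural genes had 31, 63.4 per Mb (43.1 to 90.02). Cytoplasmic ribosomal protein genes had 0 in 6.83 kb of distal coding sequence, an amount that allows up to 540 per Mb.

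**Figure D5:**
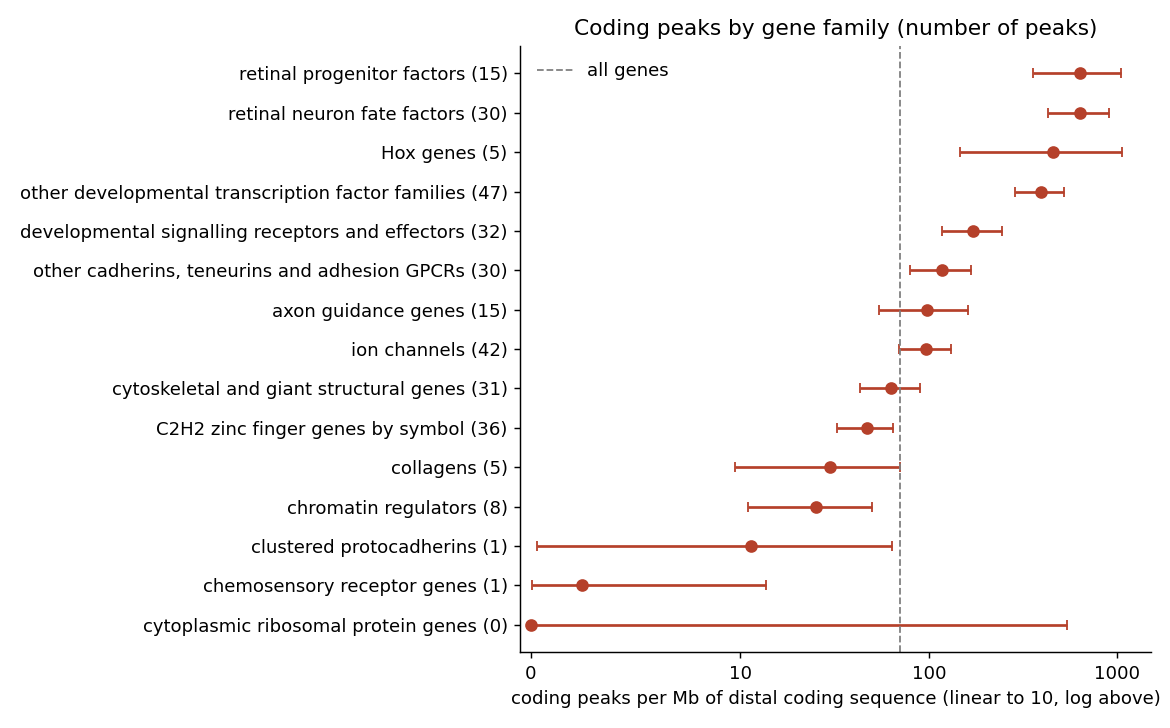
Coding peaks per Mb of distal coding sequence (x axis, linear to 10 and logarithmic above) for 15 gene families, with the number of peaks in brackets, exact Poisson 95% intervals and all genes (70.1) as the dashed line. The retinal, Hox and other developmental transcription factor families stand at 392 to 637 per Mb, the zinc finger genes at 46.8 and the chemosensory receptors at 2.44.

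Some genes held several peaks. Tchh, for the hair follicle protein trichohyalin, had 10 in its last coding exon of 4659 bp, where the density over all genes would give 0.326. They formed 7 separate stretches, with ranks of 53.3 to 85.8 in replicate 1 and 48.9 to 89.6 in replicate 2. The gene 2410141K09Rik had 7 in its last coding exon, at low ranks of 10.3 to 45.5 and 7.45 to 33.7. All 7 lay in annotated repeats over 61 to 150 bp. Tchh codes for tandem repeats, and annotated repeats covered 0 to 43 bp of each of its peaks. Whether reads are shared between copies in either gene was not tested, and these peaks are uncertain.

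Dst, for a giant linker of the cytoskeleton, had 6 peaks in 5 coding exons, the strongest of them with a CTCF match (70 and 96). Sptbn4 had 5 peaks in 5 exons, at ranks of 66.0 to 98.1 and 53.0 to 99.5, and is the gene of this group with the strongest peak. Prdm13 had 4 in its last coding exon, at ranks of 64.0 to 94.2 and 64.6 to 91.8. Shank3, for a scaffold of excitatory synapses, Pcdh17, Mn1, Cbarp and Nsg2 had 4 each. In all, 13 genes, not all named here, had 4 or more peaks. Those of Cbarp and Nsg2 formed 2 separate stretches each, since peaks of 1 library can overlap. Over all coding peaks, 89 (5.25%) overlapped another, and the 1694 formed 1647 separate stretches with 1650 best-matching peaks of replicate 2.

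Most coding peaks lay in genes whose promoters were open. A promoter peak was present in both libraries at 1171 of the 1377 host genes (85.0%, 83.0 to 86.9%), against 74.2% of the 16935 genes with distal coding sequence and no coding peak. Host genes were also longer, with a median of 1911 coding bases against 1365.5 in all genes with distal coding sequence, and the part of length was not tested. The 247 peaks in genes without such a promoter peak had median ranks of 65 and 68.7, against 64.0 and 67.9 for the rest. This difference was not tested. The nearest TSS of a coding gene was the host's own for 1430 peaks (84.4%). The median distance to the nearest TSS of any kind was 4306.5 bp, 444 peaks lay within 2 kb and 431 beyond 10 kb.

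Coding peaks stood in busier surroundings than intron and intergenic peaks. Neighbours were all shared peaks of replicate 1, including those at promoters and those that overlapped the peak itself. The part of nearby promoters was not tested. Coding peaks had a mean of 3.79 other shared peaks within 10 kb, against 2.34 for intron peaks, 2.30 for intergenic peaks and 1.34 for the coding windows without a peak. None was that near for 15.9% of coding peaks, 23.3% of intron and 25.9% of intergenic peaks, and for 14.8% of untranslated exon and 18.1% of noncoding exon peaks. The hotspots around them, the wider regions of raised cutting that were deposited beside the peaks, had median widths of 348 bp in replicate 1 and 528.5 bp in replicate 2, against 288 and 439 bp for intron peaks and 302 and 466 bp for intergenic peaks. Some peaks had their midpoint in no hotspot. They are left out of these widths but count in the totals of the hotspot shares that follow. A hotspot held a single peak for 77.2% and 65.4% of coding peaks, against 86.5% and 77.5% of intron peaks. Its deposited −log10 false discovery rate was at the ceiling of 100 for 43.7% and 65.2% of coding peaks, 37.3% and 62.7% of intron peaks, 41.3% and 66.3% of intergenic peaks and 46.1% and 68.6% of untranslated exon peaks. The peaks of the libraries had the same midpoint in 23.9% of coding, 27.0% of intron and 27.9% of intergenic peaks.

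Shared coding peaks lay close to the TSS limit on either side. Just inside it, Pou3f2, a POU homeobox gene of neurons, had a peak at 1001 bp with scores of 51 and 77, and Prune2 and Bloc1s3 had peaks at 1002 bp with 46 and 81 and with 74 and 103. Just outside it, Nkx2-4 had one at 1000 bp with 33 and 59, Bbs10 at 997 bp with 26 and 70, and Onecut2 at 996 bp with 38 and 55. A further 2464 shared coding peaks of replicate 1 lay within 1 kb of a TSS.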

How the data were processed

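DNase-seq peak and hotspot lists of 2 retina libraries were used. Each library has its own peak and hotspot calls, per the deposited file lists, on mm10, per the labels. Which aligner and caller made them is not given in the sources used here. Every 150-bp peak carries a deposited score, a whole number of unstated meaning, which is written with a decimal point for some peaks (122 coding peaks, 7.20%, in either library). The authors' hotspot lists give a −log10 false discovery rate with a ceiling of 100. The files hold no read numbers, so depth is unknown, and intervals cover counting error only. Peaks of 1 library share their tissue and are not replicates.

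Exact duplicate lines (34 and 56) were removed. Percentile ranks of the score were taken within each library over all its distinct peaks. GENCODE release M21 on GRCm38, the same assembly as mm10, gave TSSs of all transcripts and coding intervals of all coding transcripts. The replicate 2 peak with the largest overlap was the match of a replicate 1 peak. Other distal peaks were in untranslated exon, noncoding exon, intron or between genes by their midpoint, in that order. Coding windows of 150 bp were laid end to end over merged coding stretches, each standing for its part of the stretch's bases. Motif consensus sequences, 16 in number and 15 gene families served for description. Shares carry exact Clopper-Pearson 95% intervals and densities exact Poisson ones. Steps were tested on simulated data with known answers. With 1 group, no test between conditions was made.

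The members, lists and motifs were chosen with earlier results of these data known. Genes named with values were the 12 peaks with the highest lower rank and the top 2 peaks of each family. Named too were 10 of the 13 genes with 4 or more peaks, with a cut among those tied at 4. Further ones were the 3 peaks on either side of the TSS limit and the 3 largest rank differences in each direction. The 3 highest with a CTCF match and the 3 weakest were also named. Analyses used Python 3.11.15, NumPy 2.4.6, pandas 2.3.3, SciPy 1.17.1 and matplotlib 3.10.9.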

Additional observations from a re-analysis of the deposited data

How the results depend on the processing

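No paired analysis was possible because the study has 1 group. No contrast was tested, but 2 described directions turned: the density ratio fell below 1 when the whole peak had to be coding, and the CTCF share passed the 5.10% of all shared distal peaks with any overlap. Requiring the whole peak to be coding gave 809 peaks in 659 genes, 0.972% of shared distal peaks, a density ratio of 0.908, median rank 70.1, 100% wholly coding, median GC 64.7%, CpG ratio 0.714 and CTCF share 1.85%; by construction most exons are too short for it. Any overlap with coding sequence gave 2619 peaks, 3.15%, ratio 2.94, 30.9% wholly coding, GC 58.0%, CpG 0.456 and CTCF 5.15%. Peaks ranked 50 or more in each library gave 1125 peaks, 2.45%, ratio 2.29, median rank 74.9, 53.9% wholly coding, GC 62.0%, CpG 0.630, CTCF 4.80% and 84.3% overlapped. A TSS limit of 500 bp gave 2.47%, ratio 2.08, 51.9% wholly coding, GC 60.7% and CpG 0.595. A limit of 2 kb gave 1.67%, ratio 1.75, 42.9% wholly coding and CpG 0.495. TSSs of protein-coding transcripts alone gave 2.42% and CpG 0.562, and coding intervals of CCDS transcripts alone 1.92%. The share overlapped was 59.6% with at least 75 bp of overlap, 59.7% from replicate 2, and 73.2% without scores in decimal form (chosen after seeing the data).

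Single libraries, without replicate 1 or without replicate 2 and so with no overlap rule, gave 2421 to 2712 coding peaks, 1.67 to 2.07% of distal peaks, density ratios of 1.56 to 1.93, 1804 to 2039 genes, median ranks of 54.9 to 55.4, 47.1 to 48.2% wholly coding, GC of 57.7 to 59.3%, CpG of 0.481 to 0.510 and CTCF shares of 2.32 to 2.48%. They give no overlapped share. Keeping duplicate lines, or 1 peak of those that overlap in a library (likewise chosen afterwards), moved no value beyond the main interval. The cause of the other shifts was not tested. Read numbers are not known, so the depth at which weaker coding peaks would appear is not known either.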
